A study of Mus musculus with 10 samples.

Results

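The 8 genes described here encode the sterol sensor of mammalian cells, the transcription factors it controls and a sterol carrier among their targets: Srebf1, Srebf2, Scap, Insig1, Insig2, Mbtps1, Mbtps2 and Stard4. They were chosen by symbol as members of this pathway, with earlier results of these data known, and all 8 were found among the 25239 symbols of the count table. RNA had been sequenced in 10 libraries of mouse Leydig cells, which make testosterone in the testis. MLTC-1, a Leydig cell tumour line, had received either DMSO, the solvent (n = 3), or hymeglusin, a beta-lactone that blocks Hmgcs1, the HMG-CoA synthase of the cytosol (n = 3). The other libraries came from primary Leydig cells of mice of 2 months (n = 2) or 24 months (n = 2). The series title ties impaired ketogenesis in these cells to ageing of the testis. No source used here gives the dose or duration of hymeglusin, the strain of the mice or the way the primary cells were isolated. Nothing says that replicates came from separate cultures or animals. The p-values then measure only how these samples spread, which may be technical. In bulk RNA, fewer cells of a type and less RNA per cell cannot be told apart.

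The sterol regulatory element-binding proteins (SREBPs) are made as precursors in the membrane of the endoplasmic reticulum. Scap escorts them in COPII vesicles to the Golgi, where the proteases encoded by Mbtps1 (site-1 protease) and Mbtps2 (site-2 protease) release the part that enters the nucleus. When sterols are plentiful, the retention proteins Insig1 and Insig2 hold Scap and the precursor in the endoplasmic reticulum. SREBP-2, from Srebf2, mainly drives genes of cholesterol synthesis and uptake, and SREBP-1, from Srebf1, mainly those of fatty acid synthesis. Insig1, Srebf2 and Stard4, which encodes a soluble sterol carrier, are themselves targets of SREBP-2 and are treated as the feedback targets below. The other 5 genes are treated as regulators. Leydig cells use cholesterol as the substrate of steroid hormones.

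The promoters of Insig1, Srebf2 and Hmgcs1 are printed because Insig1 and Srebf2 are feedback targets and Hmgcs1 encodes the enzyme that hymeglusin inhibits. Each is the 250 bases before the start in RefSeq on GRCm38.p6, plus strand, 5′ to 3′. Capitals mark the sterol regulatory element core TCACCCCA (TCACCCCAC in Hmgcs1) and the NF-Y letters CCAAT, which read ATTGG on the other strand. The windows lie at chr5:28071162-28071411 for Insig1, at chr15:82147019-82147268 for Srebf2 and at chr13:119690101-119690350 for Hmgcs1.
Insig1: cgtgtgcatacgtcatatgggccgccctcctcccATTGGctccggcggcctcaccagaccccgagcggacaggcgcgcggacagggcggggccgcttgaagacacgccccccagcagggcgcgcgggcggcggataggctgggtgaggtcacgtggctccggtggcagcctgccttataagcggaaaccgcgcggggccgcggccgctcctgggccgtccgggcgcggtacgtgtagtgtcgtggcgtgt
Srebf2: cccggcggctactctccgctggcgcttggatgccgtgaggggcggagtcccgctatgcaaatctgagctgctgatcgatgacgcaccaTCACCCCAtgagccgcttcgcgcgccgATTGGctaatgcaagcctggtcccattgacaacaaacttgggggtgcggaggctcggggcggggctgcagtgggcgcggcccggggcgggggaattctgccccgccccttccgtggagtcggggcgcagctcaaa
Hmgcs1: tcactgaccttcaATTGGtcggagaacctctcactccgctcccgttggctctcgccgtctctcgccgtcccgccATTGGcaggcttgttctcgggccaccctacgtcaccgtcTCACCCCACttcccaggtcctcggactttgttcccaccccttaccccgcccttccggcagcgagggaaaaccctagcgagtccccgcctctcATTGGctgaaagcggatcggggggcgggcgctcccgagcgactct

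Motifs were searched on both strands in the full RefSeq windows, which run 50 bases past the start, and 7 of the 8 genes matched the table, all but Stard4. The element TCACNCCAC was in 0 of the 7 genes and in 1.44% of all 27025 genes with a window. The shorter core TCACCCCA, chosen after the sequences had been read and contained in the longer form of the element when its N is C, was in 1.77% of all genes. Among the 7 it was in Srebf2 alone, with its first base 162 bases before the start, and in Hmgcs1 it began 137 bases before the start. CCAAT was in 4 of the 7 genes and in 41.1% of all genes. It was in 14 of 15 cholesterol synthesis genes with a window. Of these 15 genes, TCACNCCAC and TCACCCCA were each in 1, Hmgcs1. The Sp1 letters GGGCGG were in 6 of the 7 genes against 38.2% of all genes. The E-box CACGTG was in Insig1 and Scap against 8.09% of all genes. A gene counted if any of its windows matched, so a gene with more windows had more chances of a match. Srebf1 and Insig2 have 3 windows each and Scap has 2, and all 27025 genes together have 32851. A match describes letters and not a bound site.

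Total counts per library ranged from 17407456 to 34787330. The 24-month libraries stood apart from the other 8. Genes whose longest transcript reaches 5 kb took 6.54% and 10.6% of their counts, against 20.9% and 21.1% at 2 months and 25.7% to 28.3% in MLTC-1. The Leydig cell marker Cyp11a1, which makes pregnenolone from cholesterol, was at 2378 to 3363 CPM (counts scaled to library size) in MLTC-1 and at 2654 to 4093 CPM in primary cells. Hsd17b3, the enzyme of the last step to testosterone, was at 926 to 1121 CPM in primary cells. In MLTC-1 it was at 0 counts in DMSO replicates 1 and 2, which allows up to 0.123 and 0.0862 CPM, and at no more than 0.295 CPM in the other 4 libraries.

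Per kilobase of exon, the retention protein gene Insig1 led the set in primary cells, and Scap and Srebf2 led it in MLTC-1. The longest transcript of Insig1 (2697 bases) is shorter than those of Scap (4227) and Srebf2 (5077). Long transcripts took a smaller share of counts in primary libraries, and the part of length in these orders was not tested. Levels across all 4 groups are RPKM, CPM divided by the exon length in kilobases, on a TMM scale of the 10 libraries. In DMSO cells Scap was at 107 RPKM, Srebf2 at 93.6, Insig1 at 71.5 and Srebf1 at 57.1 (means, n = 3). Stard4 followed at 39.5, Mbtps1 at 21.1, Insig2 at 11.9 and Mbtps2 at 6.06. None of the neighbours in that order overlapped over the 3 DMSO libraries. At 2 months Insig1 was at 79.3 RPKM, Scap at 40.6, Srebf2 at 26.2 and Stard4 at 18.1 (means, n = 2). Insig2 (14) and Srebf1 (13.4) overlapped, and Mbtps1 (9.43) and Mbtps2 (2.86) were lowest. With hymeglusin Srebf2 (89.2 RPKM) and Scap (84.7) overlapped at the top, and so did Insig1 (55.5) and Srebf1 (51.0) below them (means, n = 3). At 24 months Insig1 led at 56.2 RPKM, Scap (27.4) overlapped with Srebf1 (24.3), and Srebf2 (12.9) with Insig2 (12.0; means, n = 2). No other neighbours in these orders overlapped. Site-2 protease was the lowest of the 8 genes in each of the 4 groups.

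**Figure D1:**
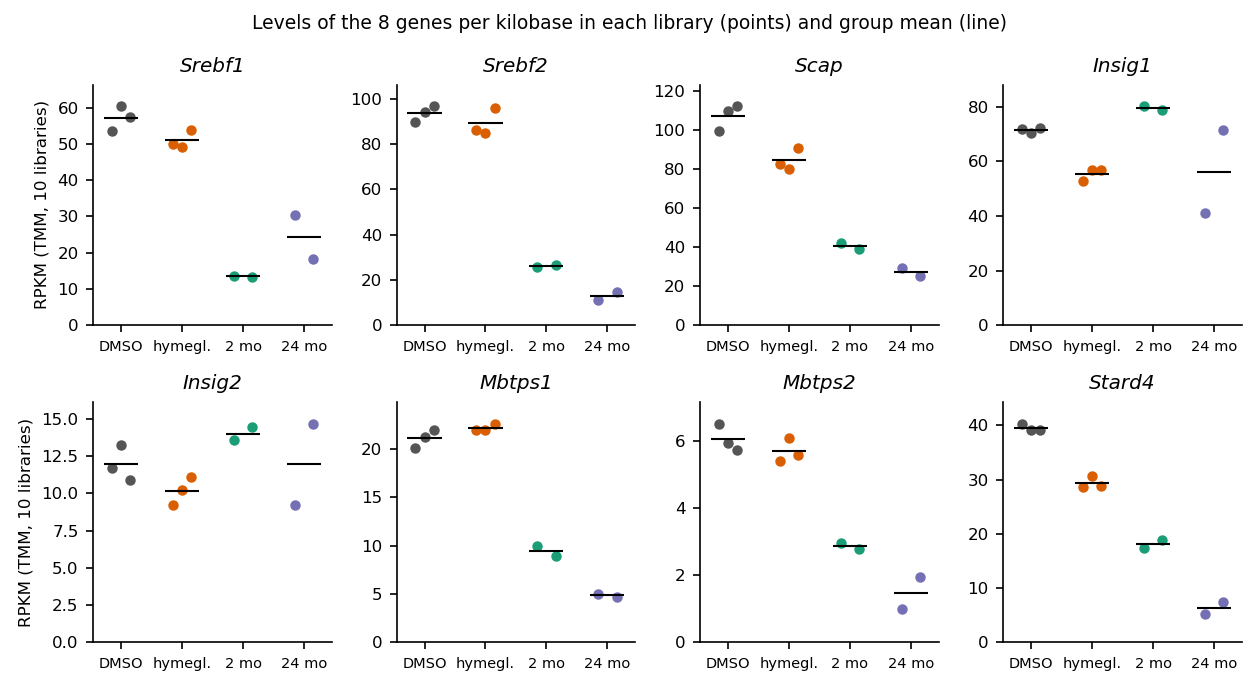
Level of each gene in RPKM (vertical axes from 0, a scale for each gene) in every library (points), with the group mean (line). Srebf1, Srebf2, Scap, Mbtps1, Mbtps2 and Stard4 are higher in all 6 MLTC-1 libraries than in all 4 primary libraries, and Insig1 and Insig2 are not. The share of all genes that separate in this way was not computed. Between DMSO and 2-month libraries 34.4% of 16092 tested genes were called higher in MLTC-1 and 48.5% lower.

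With hymeglusin, 7 of the 8 genes fell and 0 rose, where 24.5% of the 12873 tested genes were called lower and 23.8% higher at an adjusted p under 0.05 (edgeR). The falls were 10.1% to 29.8%. The median of the 8 log2 fold changes was -0.28, against 0.0061 over all tested genes. All 3 feedback targets fell, and so did Scap, Srebf1, Insig2 and Mbtps2 among the regulators. Mbtps1 was the gene that did not pass. DESeq2 and limma-voom also called 7 lower and 0 higher. The 6 libraries spread little, with a biological coefficient of variation of 0.0509. Levels in this comparison are CPM on the TMM scale of its 6 libraries, given in replicate order.

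Stard4, the sterol carrier, fell furthest. It was at 241, 231 and 235 CPM with DMSO and at 162, 174 and 159.8 CPM with hymeglusin. Each hymeglusin library was below each DMSO library, and the change was -0.51 on the log2 scale (SE 0.049, adjusted p = 6.89e-11). Insig1, the retention protein that SREBP-2 induces, was at 238, 229.6 and 240.1 CPM with DMSO and at 166, 178 and 175 CPM with hymeglusin. Its groups were also apart, at a log2 change of -0.45 (SE 0.048, adjusted p = 9.5e-10). Srebf2 was at 692, 716 and 747 CPM with DMSO and at 632, 619 and 686 CPM with hymeglusin. The third hymeglusin library came within a few CPM of the lowest DMSO library without crossing it, and the log2 fold change of -0.15 (SE 0.047, adjusted p = 0.00743) was the smallest among the genes that passed.

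Among the regulators, Scap showed the largest fall. It was at 798, 867 and 898 CPM with DMSO and at 626, 608 and 673 CPM with hymeglusin (log2 -0.43, SE 0.049, adjusted p = 4.5e-09). The groups were separated by more than the range within either. Insig2, the retention protein not induced by SREBP-2, was at 43.6, 48.6 and 40.6 CPM with DMSO and at 32.6, 36.1 and 38.3 CPM with hymeglusin (log2 -0.31, SE 0.072, adjusted p = 0.000458). Its libraries spread more than those of Insig1 at this lower level. Srebf1 was at 324, 359.6 and 347 CPM with DMSO and at 286, 281 and 302 CPM with hymeglusin (log2 -0.25, SE 0.049, adjusted p = 7.19e-05). Its counts sum transcripts from the 3 start windows that RefSeq lists, so the forms of SREBP-1 were not separated.

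Of the proteases, Mbtps2 was at 70.6, 63.4 and 62.2 CPM with DMSO and at 55.5, 62.4 and 56.0 CPM with hymeglusin (log2 -0.17, SE 0.062, adjusted p = 0.0204). The second hymeglusin library lay inside the DMSO range. Mbtps2 shares 2867 exon bases with Yy2 on the same strand, so its level is uncertain. Mbtps1 was at 227, 237 and 249 CPM with DMSO and at 235, 235 and 237 CPM with hymeglusin, within the DMSO range on the scale of the 6 libraries (log2 -0.0094, SE 0.047, adjusted p = 0.892). Its sign was positive with upper quartile or total-count scaling, a filter at 10 CPM, 1 fit of all 10 libraries or without DMSO replicate 3.

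Scaling to total counts raised the median of all genes to 0.11 and the share of calls that were higher from 49.4% to 70.0%. The calls of Srebf2 (adjusted p = 0.398) and Mbtps2 (adjusted p = 0.375) were then lost, and 6 COPII genes were called higher and 0 lower. On the scale of the 10 libraries the DMSO and hymeglusin groups overlapped for Srebf1, Srebf2, Insig2 and Mbtps2, and stayed apart for Stard4, Insig1 and Scap, all lower with hymeglusin. On that scale Mbtps1 was higher in all 3 hymeglusin libraries (232 to 238 CPM) than in the DMSO libraries (211 to 231 CPM). Without hymeglusin replicate 1 the call of Srebf2 was lost (adjusted p = 0.0551). That of Mbtps2 was lost without DMSO replicate 1 (adjusted p = 0.138) or hymeglusin replicate 1 (0.105) or 3 (0.0839), and with upper quartile scaling (0.0536). With the spread estimated in 1 fit of all 10 libraries, 0 of the 8 were called lower, and Stard4 had an adjusted p of 0.0818. In that fit 289 of all 17109 tested genes were called lower, among them 4 of the 20 cholesterol synthesis genes and 6 of 16 SREBP-1 targets. Of 8 tested Leydig markers 5 were lower and 1 higher with hymeglusin. Their sum was 8932 to 9180 CPM with DMSO and 6529 to 6682 CPM with hymeglusin on the scale of the 10 libraries, and their part in these results was not tested.

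**Figure D2:**
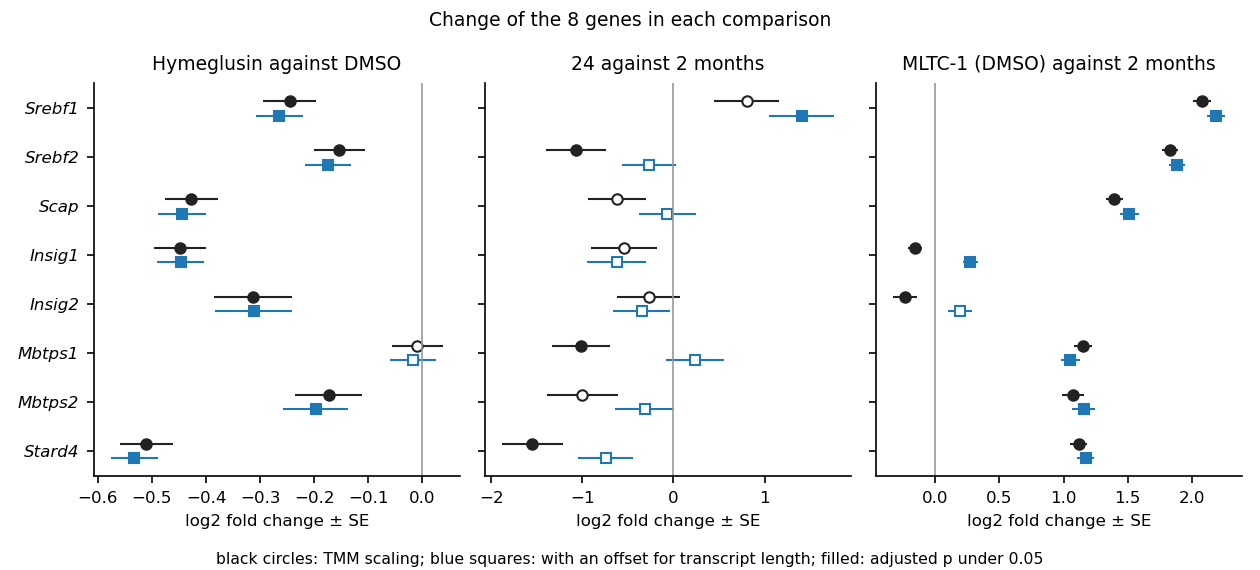
Log2 fold change (horizontal axes, scales differ between panels) with its standard error for each gene in the 3 comparisons, without (circles) and with (squares) an offset for transcript length, filled where the adjusted p is under 0.05. With hymeglusin the offset changes no call, and between the ages it ends the 3 calls of lower genes and adds that of Srebf1.

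Genes around the sensor were read from lists, again beside 24.5% of all tested genes called lower and 23.8% higher. All 20 enzymes of cholesterol synthesis known as SREBP-2 targets fell (median log2 -0.55). Hsd17b7, a sterol reductase of the late pathway (-0.84), and Mvd, which makes isopentenyl diphosphate (-0.85), had the smallest p-values. Of 8 other SREBP-2 targets tested, 6 were called lower and 1 higher (median -0.17). Fabp3, a fatty acid carrier (-0.43), and Tmem97, the sigma-2 receptor (-0.42), fell. Npc1l1, a sterol uptake protein, was called higher (1.11, adjusted p = 0.0427) at 0.394 ± 0.29 CPM with DMSO and 0.876 ± 0.37 CPM with hymeglusin (SD, n = 3 each; edgeR), with libraries that overlapped. DESeq2 did not call it. Of 16 SREBP-1 targets, 15 fell and Acacb did not pass (median -0.51), led by the desaturase Scd1 (-0.89) and the elongase Elovl6 (-0.86).

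Partners of the sensor went both ways, with 4 of 12 lower and 3 higher (median -0.12). Rnf145, a ubiquitin ligase that acts on Scap, fell (-0.57, adjusted p = 9.68e-12), as did Pgrmc1, a membrane protein that binds Insig1 (-0.32). Spring1, a cofactor of site-1 protease that the table lists as 2410131K14Rik, rose (0.35, adjusted p = 0.000135), and so did Usp20, a deubiquitinase (0.17). The COPII coat that carries Scap had 2 of 12 genes lower, Sar1a (-0.21) and Sec31a (-0.16), and 2 higher, Sec24d (0.20) and Sar1b (0.15). Among 9 other substrates of the proteases, 3 rose, led by the stress sensor Atf6 (0.27), and 2 fell, with Gnptab, which marks lysosomal enzymes, at -0.33.

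Other genes that carry or sense sterol went both ways. Of 4 further tested genes with a START domain, 2 rose and Star and Stard6 did not pass (median 0.46). Stard5 rose by 1.03 (adjusted p = 2.96e-17) and the late endosomal Stard3 by 0.32 (adjusted p = 0.00109). Of 7 genes of sterol transport to the endoplasmic reticulum, 3 fell and 2 rose (median -0.0079). Osbpl1a, which senses sterol on late endosomes, fell (-0.71), and so did Gramd1b, which moves sterol from the plasma membrane (-0.38). Of 4 genes of the LXR and oxysterol list, 3 rose and Nr1h2 did not pass (median 0.42), among them the cholesterol exporter Abca1 (0.29) and Nr1h3, which encodes LXR alpha (0.68).

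**Figure D3:**
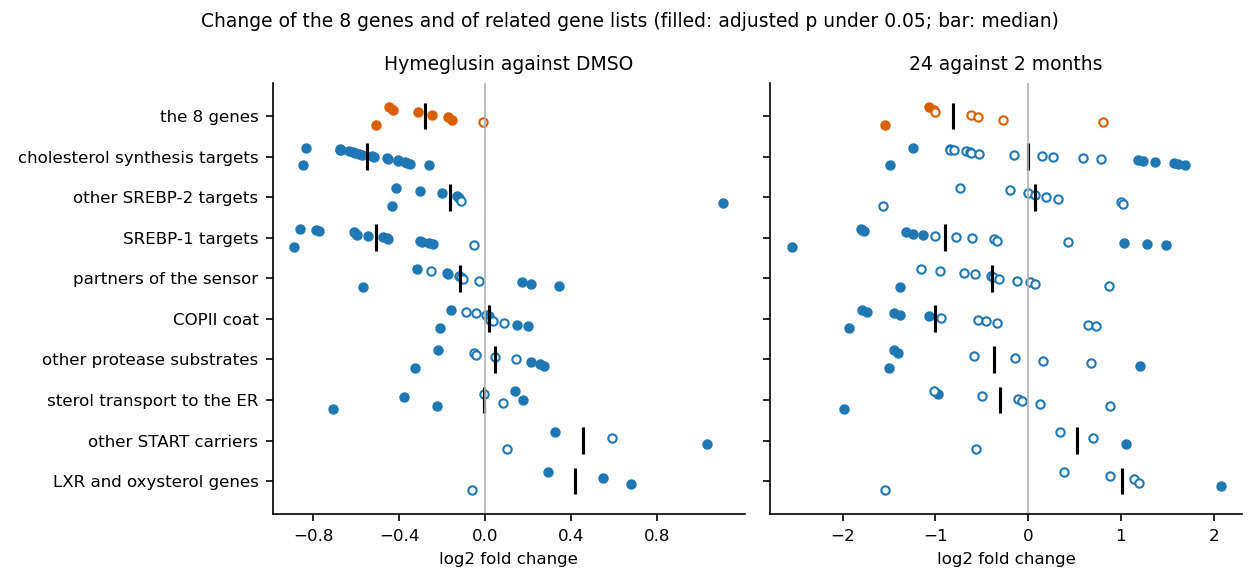
Log2 fold change (horizontal axes, scales differ) of each tested gene in the set and in 9 related lists, filled where the adjusted p is under 0.05, with the median as a bar. With hymeglusin all 20 cholesterol synthesis genes lie below 0, and between the ages the same list spreads to both sides.

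At 24 against 2 months, 3 of the 8 genes were lower and 0 higher, where 15.1% of the 16381 tested genes were called lower and 13.5% higher. The 3 were Stard4, Srebf2 and site-1 protease. The median of the 8 log2 fold changes was -0.81, against -0.011 over all tested genes. Mbtps2, which was lower, and Srebf1, which was higher, had an unadjusted p under 0.05 (edgeR) and did not pass after adjustment. DESeq2 and limma-voom also called 3 lower and 0 higher. With an offset for transcript length, 0 of the 8 were called lower and Srebf1 was called higher. Of all 16027 genes tested with that offset, 926 were called lower and 1419 higher. The spread was wider than in MLTC-1, with a biological coefficient of variation of 0.307 and 2 libraries an age. Levels are CPM on the TMM scale of the 4 primary libraries.

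Of the feedback targets, Stard4 was at 96.5 and 98.1 CPM at 2 months and at 27.6 and 39.0 CPM at 24 months (log2 -1.55, SE 0.34, adjusted p = 0.014). Both old libraries were below both young ones by more than 2-fold. Srebf2 was at 184 and 179 CPM at 2 months and at 72.9 and 99.4 CPM at 24 months (log2 -1.07, SE 0.33, adjusted p = 0.0381), again without overlap. Insig1 was at 246 and 227 CPM at 2 months and at 118 and 206 CPM at 24 months (log2 -0.55, SE 0.36, adjusted p = 0.27). The second old library lay near the young ones and the first well below them.

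Of the regulators, Mbtps1 was at 104 and 87.6 CPM at 2 months and at 48.5 and 46.7 CPM at 24 months (log2 -1.01, SE 0.32, adjusted p = 0.0413). The old libraries were closer to each other than the young ones. Srebf1 was at 76.4 and 69.5 CPM at 2 months and at 158.7 and 96.0 CPM at 24 months (log2 0.80, SE 0.35, adjusted p = 0.113). It was the gene of the set with a positive value, and the first old library was the higher. Mbtps2 (log2 -1.0, adjusted p = 0.0797), Scap (-0.62, adjusted p = 0.163) and Insig2 (-0.27, adjusted p = 0.565) did not pass, and Insig2 overlapped between the ages.

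Over all tested genes, fold changes between the ages moved with transcript length. All tested genes were divided into deciles by the length of their longest transcript, and the median log2 fold change went from 1.41 in the shortest decile to -1.41 in the longest. Mbtps1, with a longest transcript of 6789 bases, was in the decile where 54.6% of genes were called lower, and Stard4 (5097 bases) and Srebf2 (5077 bases) were in that with 39.4%. In the decile of Srebf1 (4299 bases) 24.0% were lower and 2.5% higher. With the length offset, Stard4 stood at -0.74 (SE 0.30, adjusted p = 0.104), Srebf2 at -0.27 (adjusted p = 0.583) and Mbtps1 at 0.24 (adjusted p = 0.661). Srebf1 then stood at 1.41 (SE 0.36, adjusted p = 0.0159), Insig1 at -0.62 (adjusted p = 0.211) and Insig2 at -0.35 (adjusted p = 0.483). The offset shifted the share of calls that were higher from 47.3% to 60.5%, total-count scaling shifted it to 29.0% and upper quartile scaling to 59.6%. Upper quartile scaling ended the calls of Srebf2 (adjusted p = 0.0641) and Mbtps1 (0.0701), and total counts that of Srebf2 (0.0581).

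**Figure D4:**
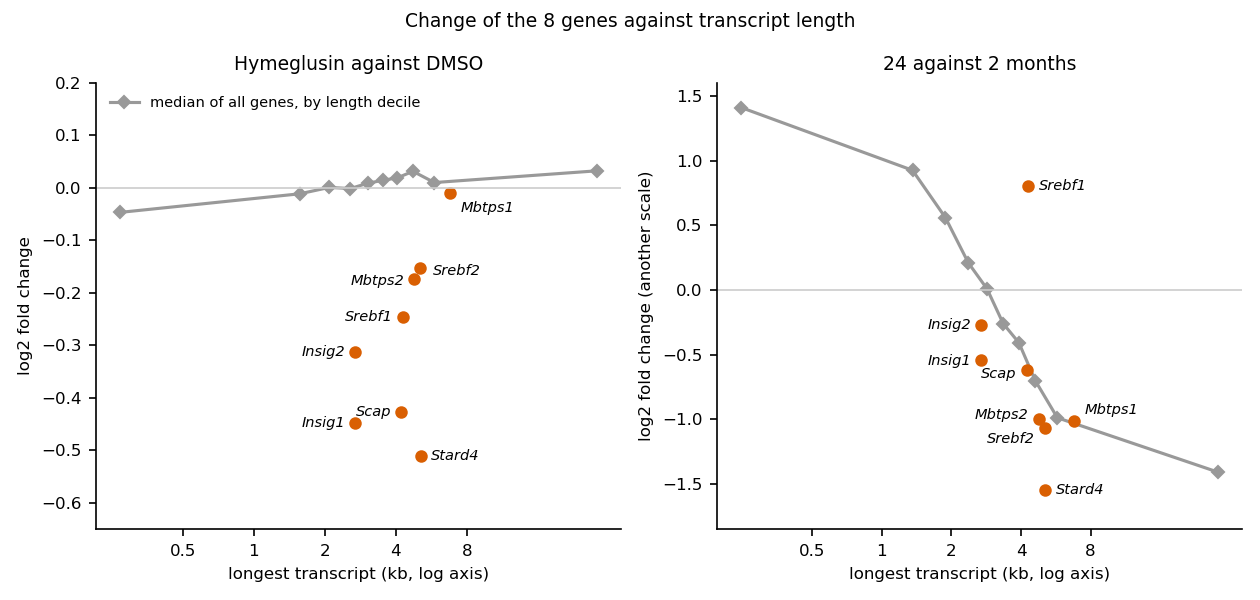
Log2 fold change of each gene (orange) against the length of its longest transcript (log axis), with the median of all tested genes in each length decile (grey, placed at the geometric mean of its bounds); the vertical scales of the panels differ. With hymeglusin the grey line stays near 0, and between the ages it falls with length, where Srebf1 and Mbtps1 are above the median of their own decile and the other 6 genes are below theirs.

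Leaving out a library between the ages leaves 1 in an age, so only log2 fold changes are given for these fits. Without 24-month replicate 1, Stard4 was at -1.37, Srebf2 at -0.91, Mbtps1 at -1.08 and Srebf1 at 0.35. Without 24-month replicate 2 these genes were at -1.88, -1.37, -1.04 and 1.06. Without 2-month replicate 1 they were at -1.57, -1.06, -0.90 and 0.85, and without 2-month replicate 2 at -1.56, -1.11, -1.15 and 0.71. Insig1 was at -0.25 without 24-month replicate 1 and at -1.06 without 24-month replicate 2. In these fits the lone library of an age is assumed to vary like the other group. Markers of other cells differed between the ages. On the scale of the 10 libraries, spermatid markers summed to 12330 and 6462 CPM in the old libraries against 1985 and 2715 in the young, and 8 of the 10 genes were called higher. Macrophage markers summed to 62.1 and 50.6 CPM in the old libraries against 14 and 16.1 in the young, with 4 of 10 tested genes higher. Stromal markers summed to 124 and 206 CPM in the old libraries against 436 and 464 in the young. Of the 5 stromal genes, Pdgfra and Dcn were called lower, Lum, at under 3 CPM in every primary library, was called higher, and Tcf21 and Col1a1 did not pass. Neutrophil markers summed to 11.5 and 67.1 CPM in the old libraries against 0.741 and 0.947 in the young, with 4 of 5 listed genes at 0 counts in both young libraries. Their part in the changes of the 8 genes was not tested.

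The targets of the SREBPs were called in both directions between the ages. Of 20 cholesterol synthesis genes, 6 were higher and 2 lower (median -0.00068), and 4 and 1 with the length offset. With that offset 1419 of all 16027 tested genes were higher and 926 lower. Counts with a library left out are not given, as 1 library then stands for an age. Pmvk, a kinase of the mevalonate pathway (log2 1.61), and Ebp, a sterol isomerase (1.57), were higher. Of 9 other SREBP-2 targets tested, 0 were called in either direction by edgeR, and 2 had an unadjusted p under 0.05 (with DESeq2 2 were higher). Of 16 SREBP-1 targets (median -0.89), 7 were lower, led by the acyltransferase Gpam (-2.55) and the fatty acid synthase Fasn (-1.80), and 3 higher, among them Acss2, which makes acetyl-CoA from acetate (1.28), and the citrate carrier Slc25a1 (1.49). With the length offset 2 were lower and 1 higher. Counts with a library left out are again not given.

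Of 12 COPII genes (median -1.0) 6 were lower and the others did not pass, with Sec16a at -1.93 and Sec24b at -1.74. With the length offset 2 were lower, where 926 of all 16027 tested genes were lower and 1419 higher. Erlin2, a membrane protein of the endoplasmic reticulum, was the 1 of 12 sensor partners called lower (-1.38, adjusted p = 0.0246), and with the offset 0 were called. Of 8 other protease substrates 3 were lower, among them Gnptab (-1.40) and Atf6 (-1.44), and Creb3l4 was higher (1.20). With the offset 0 were called. Of 8 sterol transport genes 2 were lower, the lysosomal cholesterol exporter Npc1 (-1.98, adjusted p = 0.0137) and Osbp (-0.97, adjusted p = 0.0456). Stard6 was the 1 of 4 START carriers called higher (1.06), and Mylip, a ubiquitin ligase, the 1 of 6 LXR and oxysterol genes (2.07). For the sterol transport, START and LXR lists the calls are without the length offset, and those with it are not given.

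Ratios of 2 genes within a library need no scaling to library size, but a trend with transcript length does not cancel where lengths differ. Srebf2 (5077 bases) is longer than Srebf1 (4299) and Scap (4227), and Insig1 and Insig2 are both at 2697. With the length offset, Srebf2 went from -1.07 to -0.27 between the ages and Scap from -0.62 to -0.068 (log2). The part of length in the ratios was not tested. Srebf2 counts were 0.842 ± 0.023 times those of Scap with DMSO and 1.02 ± 0.0059 times with hymeglusin (SD, n = 3 each). The groups did not overlap, and the exact two-sided permutation p of 0.1 is the smallest that 3 against 3 allow (0.3 after adjustment over 6 tests). The ratio of Srebf1 to Srebf2 was 0.478 ± 0.021 with DMSO and 0.449 ± 0.0074 with hymeglusin, also without overlap (exact permutation p = 0.1). Between the ages it went from 0.416 and 0.389 at 2 months to 2.18 and 0.965 at 24 months. Both old libraries were above all other libraries in this ratio, though 2 against 2 cannot go below an exact permutation p of 0.333. Srebf2 to Scap was 0.591 and 0.656 at 2 months and 0.359 and 0.564 at 24 months, also without overlap. Insig1 to Insig2 overlapped between DMSO (5.37 ± 0.60) and hymeglusin (4.86 ± 0.27; exact permutation p = 0.3). It was 5.26 and 4.84 at 2 months and 3.96 and 4.32 at 24 months, without overlap and with the smallest possible p of 0.333.

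**Figure D5:**
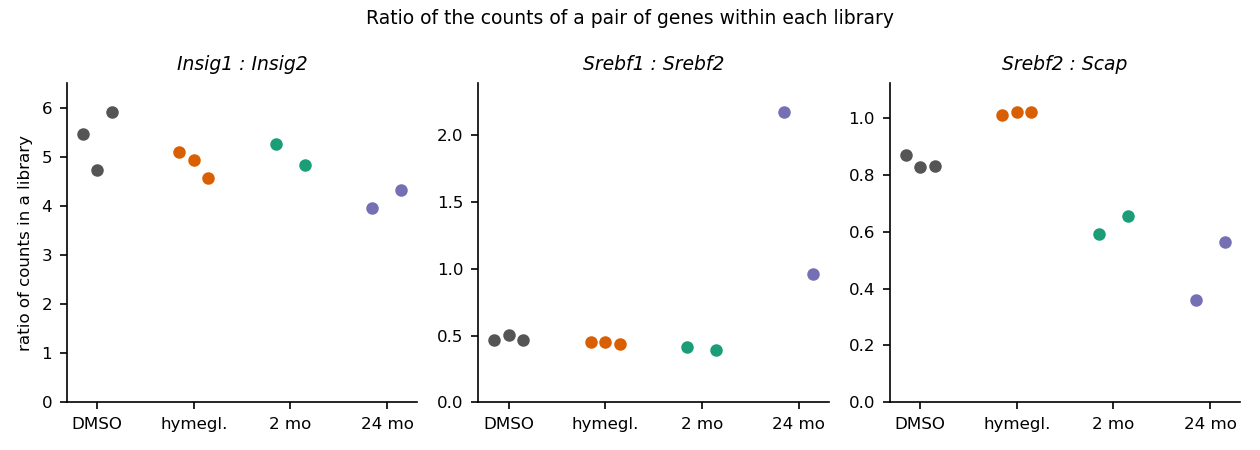
Ratio of the counts of a pair of genes in each library (points, vertical axes from 0) by group. Srebf2 to Scap is near 1 in the 3 hymeglusin libraries and lower in all others, and Srebf1 to Srebf2 is highest in the 24-month libraries.

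The line and the primary cells were compared through the DMSO and 2-month libraries, which are also the controls of the other comparisons. Tumour origin, culture and preparation cannot be told apart in it. Here 6 of the 8 genes were higher in MLTC-1 and 2 lower, where 34.4% of 16092 tested genes were called higher and 48.5% lower and the median of all genes was -0.27. Markers of other cells differed too. All 10 tested spermatid markers and all 10 tested macrophage markers were lower in MLTC-1, as were 4 of 4 tested stromal markers, and 7 of 9 Leydig markers were lower and 2 higher. On the scale of the 10 libraries spermatid markers summed to 6.84 to 6.94 CPM with DMSO against 1985 and 2715 at 2 months, macrophage markers to 0.507 to 1.07 against 14 and 16.1, and stromal markers to 1.51 to 1.92 against 436 and 464. In the DMSO libraries 5 of 10 listed spermatid, 8 of 12 macrophage and 2 of 5 stromal markers were at 0 counts. Their part in this comparison was not tested. Srebf1 was 4.23-fold higher (log2 2.08, SE 0.069, adjusted p = 1.33e-08) and Srebf2 3.56-fold higher (log2 1.83, SE 0.063). Scap followed at 1.40, Mbtps1 at 1.15, Stard4 at 1.12 and Mbtps2 at 1.08 on the log2 scale. The retention proteins went the other way, with Insig1 at -0.16 (SE 0.054, adjusted p = 0.0225) and Insig2 at -0.24 (SE 0.094, adjusted p = 0.042). With the length offset both were positive, Insig1 at 0.27 (adjusted p = 0.0016) and Insig2 at 0.19 (adjusted p = 0.0783). The call of Insig1 was also lost without DMSO replicate 2 (adjusted p = 0.124) or 3 (0.0638), and that of Insig2 without DMSO replicate 1 (0.11) or 3 (0.146). With 1 library left at 2 months, Insig2 was at -0.28 without 2-month replicate 1 and at -0.17 without 2-month replicate 2.

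Across the 10 libraries the gene most like Insig1 in log2 CPM was Hmgcs1 (Pearson r = 0.991), followed by Gab1 (0.979) and Plscr4 (0.970), out of 10478 genes whose mean log2 CPM reached 2. Hmgcs1 was not among the 3 nearest of Srebf2, which were Sipa1l3, Foxn3 and Ube4b (r of 0.999 or more), or of Stard4, which were Mrs2, Nckap1 and Marchf8 (0.996 to 0.998). Scap was most like Kdm4b (0.998), Srebf1 like Lsr (0.997), Mbtps1 like Nol6 (0.9997), Mbtps2 like Pkn2 (0.999) and Insig2 like Psmd11 (0.956). Within the set, r was 0.976 between Srebf2 and Scap, 0.836 between Insig1 and Insig2 and 0.135 between Srebf2 and Insig1. These are descriptions over libraries of 2 cell sources, and genes that differ between the line and the primary cells share that difference.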

How the data were processed

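The authors deposited raw read counts, 1 whole number per gene symbol and library, without normalization. Per the submitters' processing notes, the build was mm10 and the tools included featureCounts 2.0.6, HISAT2 2.2.1, FastQC 0.12.1 and fastp 0.23.4. How strand was treated, the other counting options and the annotation were not given in the sources used here, so reads of overlapping genes cannot be told apart. Scap shares 985 exon bases with a gene on the opposite strand and Srebf1 shares 109 with Rai1.

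Groups came from the labels, and every column of values had a sample (0 without). Each comparison had a separate fit in edgeR 4.0.16 (R 4.3.3). Low genes were removed with filterByExpr (at least 10 counts, total of at least 15) and TMM factors scaled the libraries. The test was edgeR's two-sided quasi-likelihood F-test with robust dispersions. Its p-values were adjusted by Benjamini-Hochberg over all tested genes, with a threshold of 0.05. Adjusted p-values are from this test. The standard error (SE) is the size of the log2 fold change over the square root of F. The scripts were tested on simulated data. Counts of 0 allow up to 3 counts, which covers counting error only. Replicate pairs differed beyond sampling noise, with a chi-square per degree of freedom of 3.44 to 7.67 in MLTC-1, 18.9 at 2 months and 134 at 24 months.

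Lengths are those of GENCODE M21 and cover 97.8% to 98.1% of the tested genes. The length offset is a loess trend per library (span 0.3, 2 passes). The other alternatives were scaling by total counts, upper quartile or RLE, a filter at 10 CPM or none, limma-voom (limma 3.58.1), DESeq2 1.42.0, a replicate block, a joint fit of the 10 libraries, and the omission of each library in turn. Named genes are the 8 genes, up to 2 genes per direction of each list by adjusted p, and the 3 genes most correlated with each of the 8. Some genes that this rule names are not reported here. The genes and lists were chosen with earlier results of these data known.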

Additional observations from a re-analysis of the deposited data

How the results depend on the processing

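Of 352 recomputed log2 fold changes of the 8 genes, 296 kept direction and side of the threshold, 36 lost and 12 gained a call, and 8 changed sign. These totals include fits that leave 1 library in an age or at 2 months, where calls are not reliable. Mbtps1 with hymeglusin became 0.021 with upper quartile scaling, 0.096 with total counts, 0.015 with a filter at 10 CPM and 0.073 with 1 fit of all 10 libraries. Omitting each library in turn gave -0.0418 to 0.023, the highest without DMSO replicate 3. With the length offset, Mbtps1 became 0.24 between the ages, and Insig1 and Insig2 became 0.27 and 0.19 between MLTC-1 and primary cells. In 1 fit of all 10 libraries, which adds the wider spread of the primary cells, hymeglusin gave 934 called genes of any kind against 6218. Of 17109 tested genes 289 were lower, and of the 8 genes 0. Age gave 8868 called genes against 4685. Of the tested genes 4559 were then lower and 4309 higher, and of the 8 genes 5 were lower and 1 higher. For age, upper quartile scaling left 1 of the 8 lower, and total counts gave 1832 called genes. The length offset gave 2345 of 16027 tested genes, 926 lower and 1419 higher, with 0 of the 8 lower and 1 higher. Leaving out each library gave 841 to 9887 called genes, 0 to 7 of the 8 lower and 0 to 1 higher. Between MLTC-1 and primary cells, limma-voom called 1 of the 8 lower, and no count filter, 1 fit of all 10 libraries and the length offset called 0. Leaving out each DMSO library gave 0 to 1. Deviations of same-numbered libraries from their group means had r of -0.026 to 0.055 with hymeglusin and -0.092 between the ages. Such deviations cancel within a group of 2 or 3 libraries, so these r cannot tell whether the numbers pair them. With the replicate block, 6360 genes and 7 of the 8 were called with hymeglusin, and 4774 genes and 2 of the 8 between the ages, where Mbtps1 lost its call (adjusted p = 0.0634). Causes other than those named were not tested. The lowest count among the 8 genes was 139 (Mbtps2 in 24-month replicate 1), and whether depth limited any result was not tested. Precision between the ages is limited by 2 libraries a group.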
